A study of Mus musculus with 15 samples.

Results

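The genes followed here were 9 interferon-stimulated genes, Ifit1, Ifit2, Ifit3, Isg15, Irf7, Oasl2, Usp18, Bst2 and Ifitm3, in RNA-seq libraries of the developing mouse pancreas. They were named with earlier results of these data known, so their calls are not independent of the data. Each symbol was matched to its Ensembl identifier in the table of read counts, which holds 25292 genes, and all 9 had a row. All 9 also passed the filter on low counts that left 16245 genes for testing. Ifit1 and Ifit3, with few reads in uncultured tissue, passed it only through the cultured groups. The 15 libraries fell into 5 groups of 3, all from C57/Bl6J mice. The first pair of groups were whole pancreata taken at 14.5 days post coitum (dpc) from wild-type embryos (wt) and from embryos labelled S1pr2 null, carrying the S1pr2 tm1Rlp allele, in which a neomycin cassette interrupts the receptor gene. The remaining groups were dorsal pancreatic buds of wild-type embryos of the same stage, cultured for 2 days on filters at the air-liquid interface in serum-free medium that was changed every day: buds given no compound or the solvent (control), buds given 15 μM JTE013, an antagonist of the sphingosine-1-phosphate receptor S1pr2 (JTE), and buds given 15 μM JTE013 with 50 ng/ml connective tissue growth factor (JTE + CTGF). Up to 3 pancreata or explants of 1 genotype or treatment went into a library, so the libraries are pools, and p-values measure the spread between pools. Because the tissue was bulk, fewer cells of a type and less RNA per cell cannot be told apart.

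Interferons are secreted cytokines made when cells sense foreign or misplaced nucleic acid. Type I interferons bind the receptor pair Ifnar1 and Ifnar2, the kinases Jak1 and Tyk2 pass the signal on inside the cell, and the transcription factor complex ISGF3, which holds Stat2 and Irf9, binds interferon-stimulated response elements (ISRE) in the promoters of its target genes. Among the 9 genes, Irf7 is a transcription factor that drives further interferon production. Isg15 is a ubiquitin-like protein that is attached to other proteins, and Usp18 is the protease that removes it and also restrains the interferon receptor. The Ifit proteins bind viral RNA, Oasl2 belongs to the oligoadenylate synthetase family, Bst2 (tetherin) holds budding virus at the cell surface, and Ifitm3 blocks virus entry at membranes.

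All 9 are protein-coding genes. In mm10 coordinates, Ifit2 (chr19:34550694-34576419), Ifit3 (chr19:34583531-34588731) and Ifit1 (chr19:34640871-34650009) form a cluster on the plus strand of chromosome 19, and Oasl2 (chr5:114896936-114912234) and Usp18 (chr6:121245906-121270916) are on the plus strand as well. Isg15 (chr4:156199424-156200818), Irf7 (chr7:141262706-141266481), Ifitm3 (chr7:141009586-141010770) and Bst2 (chr8:71534264-71537437) are on the minus strand. Irf7 shares 45 exonic bases with Phrf1, which runs the other way, and how the counting used strand was not stated.

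The ISRE is a pair of GAAA blocks with a gap of a pair of bases, GAAANNGAAA, and it was looked for on both strands of the 300-base windows that run from 250 bases before to the first 50 bases of each annotated transcript, in RefSeq sequence of the GRCm38.p6 assembly. A window was given for 8 of the 9 genes, all but Usp18, and 5 of those 8 held the motif, each of them at 2 or more places. The motif stood in 3.99% of the 27025 genes with a window and at 2 or more places in 0.266% of them, and 17 of 42 other interferon-stimulated genes (40.5%) held it. The stretches around the matches are shown because these are the letters that ISGF3 and interferon regulatory factors are known to bind. They are written 5′ to 3′ on the strand of the gene, with the matched bases in capitals, so that a match on the opposite strand appears as its reverse complement, with TTTC blocks:

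Ifit1, chr19:34640770-34640828, plus strand: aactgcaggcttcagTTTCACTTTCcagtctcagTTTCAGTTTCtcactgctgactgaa

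Ifit3, chr19:34583358-34583431, plus strand: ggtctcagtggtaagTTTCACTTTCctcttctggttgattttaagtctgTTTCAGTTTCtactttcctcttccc

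Isg15, chr4:156200860-156200911, minus strand: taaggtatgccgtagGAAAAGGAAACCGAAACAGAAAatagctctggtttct

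Bst2, chr8:71537572-71537617, minus strand: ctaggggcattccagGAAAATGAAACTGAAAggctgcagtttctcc

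Ifitm3, chr7:141010701-141010757, minus strand: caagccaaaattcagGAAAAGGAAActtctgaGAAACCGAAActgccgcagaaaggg

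Ifit1 and Ifit3, which lie in the same gene cluster on chromosome 19, carried the same pair of matches, GAAAGTGAAA and GAAACTGAAA, both read on the opposite strand. In Isg15 the 3 matches ran into each other, and in Bst2 the 2 matches overlapped. The Ifitm3 matches lay within the transcript, from base 2 to base 11 and from base 19 to base 28 counted from 0 at its annotated start. No match was in the windows of Ifit2, Irf7 and Oasl2, which says only that these letters were not in those 300 bases. The gamma-activated sequence TTCNNNGAA, an element of genes induced by interferon-gamma, stood in 3 of the 8 windows and in 9.55% of all genes with a window. It was in the windows of Ifit2, Bst2 and Ifitm3, and in Bst2 and Ifitm3 it overlapped an ISRE match. GAAA blocks set 1 base apart (GAAANGAAA) and 3 bases apart (GAAANNNGAAA) were each in 1 of the 8 windows, against 3.7% and 3.17% of genes. The first was in Isg15 and the second, overlapping an ISRE match, in Ifit3. A match is a description of the sequence, not a measured binding site.

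The libraries held between 11402804 and 13828737 reads assigned to genes, so depth was even. S1pr2 itself had 858, 796 and 812 reads in the wt libraries and 1486, 1368 and 1609 in those labelled S1pr2 null, a log2 difference of 0.83 ± 0.07 (SE, adjusted p = 4.5e-07 by edgeR's quasi-likelihood test), so reads of this gene cannot serve as a check of the label, and they say nothing of the protein, whose loss the study checked separately by Western blot. The group is called by its label. Pancreas markers such as Pdx1, Ptf1a and Ins2 were present in all groups. A pair of libraries stood apart in the genes of interest. Control 1 was the highest of the 3 control libraries for all 9 genes, and control 2 was the lowest for all 9. Control 1 exceeded both other control libraries at least 2-fold for 7 of the 9 genes and for 28 of 53 other interferon-stimulated genes (52.8%), against 0.555% of 15310 genes of a mean of at least 10 normalised reads in that group. JTE 3 was the highest JTE library for all 9 genes and exceeded both others at least 2-fold for 4 of them, against 0.696% of genes. It also differed in summed markers of tissues. Pancreas markers summed to 88440 normalised reads in JTE 3, against 145500 and 170500 in JTE 1 and JTE 2. Epithelial markers summed to 26110 against 31600 and 32700, and mesenchyme markers to 174900 against 142500 and 152700. The endothelial sum lay between those of the other JTE libraries. Comparisons that use control are therefore given for the 9 genes, and as counts for most gene lists, with and without control 1. Values of single genes outside the 9 include control 1, so their sizes and order may rest on it.

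Levels are given as normalised reads, that is, counts divided by the library's effective size relative to the mean of the 15 libraries, in the order of replicates 1, 2 and 3. Irf7 had 33.3, 38.3 and 27.2 normalised reads in wt and 20.6, 28.6 and 23.6 in S1pr2 null. In cultured buds Irf7 stood at 1401, 149 and 225 in control, 41.3, 48.0 and 173 in JTE, and 104, 119 and 72.3 in JTE + CTGF. Thus every control library was above every uncultured one, control 1 was far above its group, and JTE 3 reached the range of control 2 and control 3.

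Isg15 had 13.5, 20.1 and 14.1 normalised reads in wt and 9.81, 5.54 and 10.9 in S1pr2 null, where it was lower in all 3 libraries. In culture it stood at 1224, 108 and 186 in control, 43.4, 41.9 and 109 in JTE, and 57.2, 73.3 and 33.2 in JTE + CTGF. Only JTE 3, among the 6 libraries with JTE013, reached a control library. Usp18, its protease, had 62.1, 50.8 and 57.2 in wt and 27.5, 30.5 and 43.7 in S1pr2 null. In culture Usp18 stood at 597, 98.5 and 142 in control, 31.7, 36.8 and 68.8 in JTE, and 41.2, 37.8 and 37.9 in JTE + CTGF, and no library with JTE013 overlapped the control libraries.

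Among the Ifit genes, Ifit1 was almost silent in uncultured tissue, with 9, 4 and 3 reads in wt and 2, 3 and 0 in S1pr2 null, where a count of 0 allows up to 3 reads. In culture Ifit1 reached 728, 51.3 and 114 normalised reads in control, 21.2, 31.7 and 54.9 in JTE, and 41.2, 48.1 and 27.2 in JTE + CTGF. Ifit3 followed it, with 5, 8 and 5 reads in wt, 4, 3 and 2 in S1pr2 null, and 365, 39.2 and 55.2 normalised reads in control. It fell to 7.41, 6.13 and 28.8 normalised reads in JTE and stood at 22.9, 19.5 and 9.48 in JTE + CTGF. Ifit3 shares 51.2% of its 50-base words with its near copy Ifit3b, and the authors counted uniquely aligned reads, so its level is uncertain. For Ifit1, Ifit2, Isg15, Usp18, Oasl2, Irf7, Bst2 and Ifitm3 that share was at most 10%.

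Ifit2 differed from the other Ifit genes. It had 142, 116 and 130 normalised reads in wt and 174, 180 and 177 in S1pr2 null, so that it was the sole member of the 9 that was higher in every S1pr2 null library. In culture Ifit2 stood at 466, 200.1 and 267 in control, 125, 128 and 197 in JTE, and 109, 140 and 104 in JTE + CTGF. Its lowest control library lay just above its highest JTE library. Oasl2 had 33.3, 38.3 and 24.4 in wt and 15.7, 26.8 and 15.1 in S1pr2 null, and in culture 1050.0, 157 and 269 in control, 66.7, 45.9 and 162 in JTE, and 107, 108 and 74.6 in JTE + CTGF. JTE 3 again lay above control 2.

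The membrane proteins were the most abundant. Bst2 had 504, 601 and 528 normalised reads in wt and 178, 207 and 189 in S1pr2 null, with a clear gap between the groups. In culture Bst2 stood at 2866, 653 and 823 in control, 543, 571 and 1045 in JTE, and 680.3, 886 and 798 in JTE + CTGF. Here control 2 and control 3 lay among the treated libraries and control 1 alone was above them. Ifitm3 had 1240, 1583 and 1394 in wt and 986, 858 and 858 in S1pr2 null. In culture Ifitm3 stood at 5167, 2752 and 3004 in control, 1007, 1092 and 1452 in JTE, and 1469, 1687 and 1547 in JTE + CTGF, with all control libraries above all others.

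**Figure D1:**
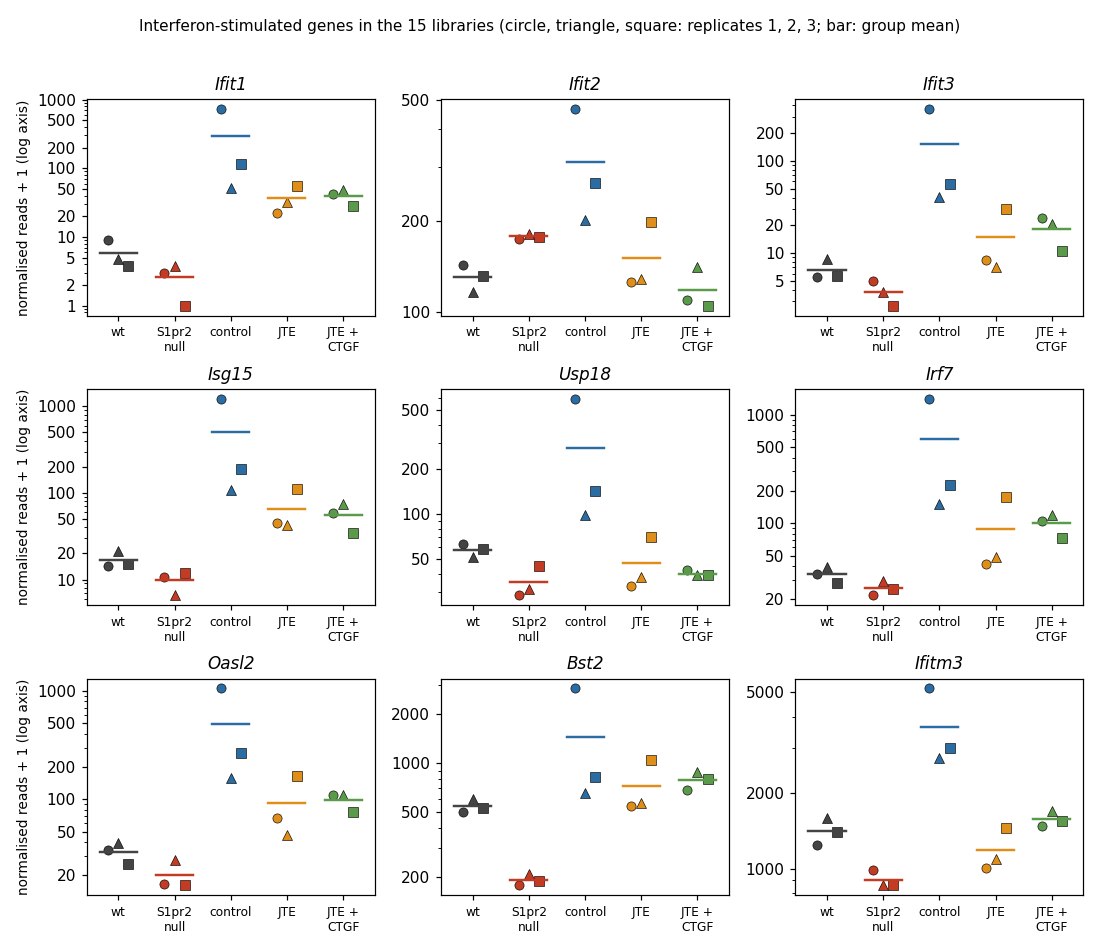
Normalised reads plus 1 on a log axis for the 9 genes, 1 panel per gene with its own axis range. The x axis gives the 5 groups, each symbol is a library (circle, triangle and square for replicates 1, 2 and 3) and the bar is the group mean. Control 1 is the highest library in every panel, and wt and S1pr2 null are the lowest groups for Ifit1, Ifit3, Isg15, Irf7 and Oasl2.

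Per length of exon, in RPKM (reads per kilobase of exon, scaled for library size), the order of the genes was led in every group by Ifitm3 and then Bst2. In wt, Ifitm3 stood at 165 ± 20.2 RPKM and Bst2 at 56.8 ± 5.29 (SD, n = 3), followed by Ifit2 at 2.63 ± 0.27 and Usp18 at 2.55 ± 0.26, whose ranges overlapped. Isg15 came next at 1.68 ± 0.39, then Irf7 at 0.87 ± 0.15 and Oasl2 at 0.66 ± 0.14, which overlapped, and last Ifit3 at 0.26 ± 0.08 and Ifit1 at 0.15 ± 0.08, which overlapped as well. In control the order changed: Isg15 came next after Bst2 at 53.4 ± 65.7 RPKM and Ifit2 came last at 6.31 ± 2.81. There every neighbour below Ifitm3 overlapped the next, since control 1 widened the ranges. In JTE + CTGF, Isg15 followed Bst2 at 5.75 ± 2.13 RPKM without overlap with its neighbours, and Irf7, Ifit2, Oasl2 and Usp18 formed a run from 2.60 ± 0.63 to 1.75 ± 0.09 in which each overlapped the next.

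Culture was compared first, control buds against wt pancreata. This pair differs in culture, in 2 days of time and in dorsal bud against whole pancreas, and these cannot be told apart. All 9 genes were higher in control (adjusted p below 0.05, edgeR's quasi-likelihood test with Benjamini-Hochberg adjustment over the 16245 genes), while 57.8% of all genes passed the test, 28.5% being higher and 29.3% lower. Their median log2 fold change was 3.93, against -0.02 for all genes tested. For none of the 9 did the libraries of the groups overlap, where 30.7% of all genes had every control library above every wt library. Ifit1 and Ifit3 passed the filter on low counts only through cultured libraries, so for them a call higher in control was favoured in advance.

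The largest rise was that of Ifit1, with a log2 fold change of 5.87 ± 0.95 (SE, adjusted p = 4.89e-05), 58.3-fold, on 3 to 9 reads in wt. Isg15 rose 31.6-fold, a log2 fold change of 4.98 ± 0.81 (adjusted p = 5.59e-05), and Ifit3 26.7-fold, 4.74 ± 0.84 (adjusted p = 1.2e-04). Irf7 rose 17.9-fold with 4.16 ± 0.74 (adjusted p = 1.39e-04) and Oasl2 15.3-fold with 3.93 ± 0.62 (adjusted p = 3.63e-05). The smaller rises were those of Usp18 at 4.89-fold, Bst2 2.65-fold, Ifitm3 2.59-fold and Ifit2 2.39-fold. Ifitm3, with the tightest replicates, had a log2 fold change of 1.37 ± 0.18 (adjusted p = 6.14e-06).

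Without control 1, 8 of the 9 genes stayed past the test, with a median log2 fold change of 2.50, and 52.1% of all genes did. The log2 fold change of Ifit1 was then 4.02 ± 0.51, that of Isg15 3.20 ± 0.41, that of Ifit3 3.05 ± 0.51 and that of Irf7 2.50 ± 0.44. Usp18 stood at 1.08 ± 0.25 and Bst2 at 0.44 ± 0.21, the latter no longer past the test (adjusted p = 0.0855). Ifitm3 moved least, to 1.04 ± 0.12.

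JTE013 was then compared with control among cultured buds, the question being what blocking the receptor changed. All 9 genes were lower in JTE, where 52.2% of all genes passed the test, 26.2% being lower and 25.9% higher. The median log2 fold change of the 9 was -2.58, against 0 for all genes. The libraries did not overlap for 4 genes, Ifit2, Ifit3, Usp18 and Ifitm3, where 28.3% of all genes had every JTE library below every control library. For Ifit1, Isg15, Irf7, Oasl2 and Bst2, JTE 3 lay above control 2.

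Ifit3 had a log2 fold change of -3.38 ± 0.72, 10.4-fold lower (adjusted p = 8.25e-04), and Ifit1 one of -3.02 ± 0.70, 8.13-fold lower (adjusted p = 0.00153). Isg15 was 7.68-fold lower (adjusted p = 0.00129), Irf7 6.61-fold (adjusted p = 0.00202), Usp18 5.99-fold (adjusted p = 4.16e-04) and Oasl2 5.28-fold (adjusted p = 0.00116). Ifitm3, 3.07-fold lower, had the smallest p of the 9 (adjusted p = 1.75e-06), and Ifit2 was 2.06-fold lower (adjusted p = 0.00134). Bst2 was 2.00-fold lower at an adjusted p of 0.0377, and this call was lost without control 1, without JTE 1 and without JTE 2.

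Without control 1, 8 of the 9 genes stayed lower in JTE, with a median log2 fold change of -1.17, where 47.3% of all genes passed the test. The sizes drew together: Ifit3 was then 3.23-fold lower, Usp18 2.58-fold, Ifitm3 2.43-fold, Oasl2 2.29-fold, Ifit1 2.26-fold, Isg15 2.24-fold, Irf7 2.10-fold and Ifit2 1.55-fold. The largest adjusted p among these was that of Irf7, 0.0336. Bst2 had a log2 fold change of -0.03 ± 0.20 (adjusted p = 0.923). So the size of the difference rested in large part on control 1, and its direction in these 8 genes did not. Without JTE 3 all 9 genes passed the test, with a median of -3.12, where 48.9% of all genes passed.

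**Figure D2:**
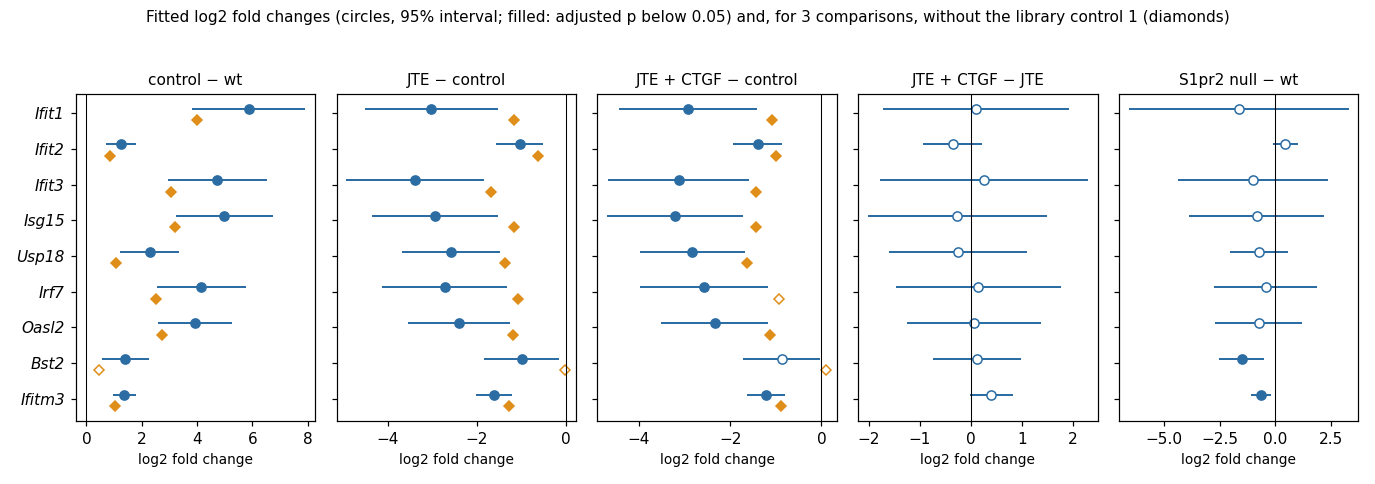
Log2 fold change of each gene (rows) in 5 comparisons (panels, each with its own x range), with circles for all 15 libraries, lines for 95% intervals and filled symbols for an adjusted p below 0.05. Diamonds give the 3 comparisons with control after leaving out control 1, where the median moves from 3.93 to 2.50 against wt and from -2.58 to -1.17 for JTE.

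Adding CTGF to JTE013 addressed whether the factor changed what the antagonist left. None of the 9 genes passed the test between JTE + CTGF and JTE by edgeR, while 30.4% of all genes did; at an unadjusted p below 0.05 there was 1, Ifitm3. DESeq2's Wald test also called none of the 9, where it called 27.3% of all genes. Their median log2 difference was 0.10, against 0.00 for all genes tested. The intervals were wide for the induced genes, with 95% limits of -1.71 to 1.90 for Ifit1, -1.99 to 1.47 for Isg15 and -1.45 to 1.74 for Irf7, so that sizeable differences either way were not detectable with these replicates. Ifitm3 had the narrowest interval, 0.01 to 0.80 around 0.40 ± 0.19 (adjusted p = 0.114), and its 3 JTE + CTGF libraries all lay above the 3 JTE libraries, as did those of 19.6% of all genes. Without JTE 3 the median of the 9 was 0.59. The difference in Ifitm3 passed the test without JTE 3, at 0.62 (adjusted p = 0.023), and without control 1, at 0.40 (adjusted p = 0.0137).

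Against control, whose libraries also enter the comparison of JTE with control, JTE + CTGF had 8 of the 9 genes lower, where 61.1% of all genes passed the test, 33% being lower. The median log2 fold change was -2.58, against -0.03 for all genes. For the same 8 genes no library overlapped between the groups, as for 34.4% of all genes in that direction. The values were 9.21-fold lower for Isg15, 8.74-fold for Ifit3, 7.60-fold for Ifit1, 7.12-fold for Usp18, 5.98-fold for Irf7, 5.07-fold for Oasl2, 2.64-fold for Ifit2 and 2.32-fold for Ifitm3. Bst2 had a log2 fold change of -0.87 ± 0.39 (adjusted p = 0.0589), which passed the test without control 2, without control 3 or without JTE 3, at -1.23, -1.16 and -0.84. Without control 1, 7 genes were lower with a median of -1.08, where 56.9% of all genes passed, Irf7 was at -0.92 (adjusted p = 0.0562) and Bst2 at 0.10.

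In uncultured tissue, libraries labelled S1pr2 null were compared with wt. Of the 9 genes, 2 were lower, Bst2 and Ifitm3, and none was higher, where 25.8% of all genes passed the test and 13.3% were lower. Bst2 was 2.84-fold lower, a log2 fold change of -1.51 ± 0.46 (adjusted p = 0.0218), and Ifitm3 was 1.56-fold lower, -0.64 ± 0.19 (adjusted p = 0.0178). The Bst2 call was lost without wt 2 and without any of the 3 S1pr2 null libraries, at adjusted p between 0.0541 and 0.0694. The Ifitm3 call was lost without wt 2, S1pr2 null 2 or S1pr2 null 3, at adjusted p of 0.0636 to 0.0849.

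Most of the other genes lay lower in S1pr2 null without passing the test. For 6 genes, Ifit1, Ifit3, Isg15, Usp18, Bst2 and Ifitm3, every S1pr2 null library was below every wt library, as for 23.8% of all genes. Usp18 had a log2 fold change of -0.73 ± 0.60 (adjusted p = 0.404), Oasl2 -0.74 ± 0.91 (adjusted p = 0.598), Isg15 -0.84 ± 1.42 (adjusted p = 0.713) and Irf7 -0.44 ± 1.07 (adjusted p = 0.809). For Ifit1, no S1pr2 null library had more than 3 reads, and no fold is given. Ifit2 lay in the other direction, at 0.45 ± 0.25 (adjusted p = 0.2), with its S1pr2 null libraries all above wt, as for 22.5% of all genes. The median over the 9 genes was -0.74, also with Ifit1 set to its floor of 3 reads per library, against -0.01 for all genes. The spread in this fit is shared by all 5 groups, so the wide control group widens it. When the 6 uncultured libraries were fitted alone, where 34.7% of all genes passed, 5 of the 9 genes did: Usp18 (adjusted p = 0.00962), Oasl2 (adjusted p = 0.0466), Bst2 and Ifitm3 lower, and Ifit2 higher (adjusted p = 0.00299).

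The response to JTE013 was set against the difference between genotypes by an interaction term, which 42.9% of all genes passed. Of the 9 genes, 2 passed, both with a log2 fold change in JTE below that in S1pr2 null. These were Ifit2, at -1.49 ± 0.34 on the log2 scale (adjusted p = 0.00211), and Ifitm3, at -0.98 ± 0.26 (adjusted p = 0.00623). Ifit2 had a log2 fold change of 0.45 in S1pr2 null, which did not pass the test, and -1.04 in JTE. Ifitm3 was lower in both, at -0.64 in S1pr2 null and -1.62 in JTE, so its fall was larger in JTE. Usp18 had an interaction of -1.85 ± 0.80 (adjusted p = 0.0713), which passed without control 2, control 3 or JTE 3 and was -0.64 without control 1 (adjusted p = 0.183). Bst2 was at 0.51 ± 0.60 (adjusted p = 0.519), and without control 1 its interaction was 1.48 and passed (adjusted p = 8.76e-04). Ifit2 at -1.08 and Ifitm3 at -0.64 passed without control 1 as well, the median over the 9 genes being -0.63 then and -1.67 with all libraries, and 40.2% of all genes passed. The tissues differ between the pairs of groups, cultured bud against whole pancreas.

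The other genes of the pathway were taken from lists of ligands, receptors, sensors and targets. Of 21 interferon genes listed, 7 had a row, Ifna4, Ifna15, Ifnk, Ifnz, Ifng, Ifnl2 and Ifnl3, and none had more than 1 read in any library, with none tested. Ifnb1 and the remaining ligands had no row matched by symbol in the table of read counts, so no level is given for them. The receptor genes were expressed throughout. Ifnar1 had 1317 normalised reads on average in wt, 1611 in control and 1635 in JTE, a log2 difference of 0.29 ± 0.06 for control against wt (adjusted p = 6.24e-04) and 0.02 ± 0.06 for JTE against control (adjusted p = 0.785). Ifnar2 was 0.36 ± 0.09 higher in control than in wt (adjusted p = 0.00334) and stood at 0.13 ± 0.09 in JTE against control (adjusted p = 0.236).

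Of the 12 genes for receptors, kinases and ISGF3, 11 were higher in control than in wt and none lower, with a median log2 fold change of 0.39. Over all genes, 28.5% were higher there. In JTE against control, 3 were higher and 3 lower, near the 52.2% of all genes that passed the test. Among the lower ones were Irf9, a component of ISGF3, at -0.76 ± 0.19 (adjusted p = 0.00288), and Ifngr2, a chain of the interferon-gamma receptor, at -0.41 ± 0.06 (adjusted p = 1.59e-05). The higher ones were Ifnlr1, the interferon-lambda receptor, at 0.47 ± 0.11, Il10rb, its partner chain, at 0.27 ± 0.10, and the kinase Jak2 at 0.26 ± 0.09. Without control 1, 2 were higher and 2 lower, where 47.3% of all genes passed. Stat2, which joins Irf9 in ISGF3, rose by 0.64 ± 0.16 in culture (adjusted p = 0.00201) and was at -0.14 ± 0.15 with JTE013 (adjusted p = 0.466). In S1pr2 null against wt, Ifnar1 was higher by 0.31 ± 0.06 (adjusted p = 0.00125), and Ifngr1 and Il10rb stood at -0.24 and -0.48 (adjusted p = 0.038 and 0.00716). These 3 of the 12 were near the 25.8% of all genes that passed.

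Of the 53 other interferon-stimulated genes tested, 47 were higher and 1 lower in control than in wt, with a median log2 fold change of 2.04. Over all genes, 28.5% were higher and 29.3% lower. The 1 lower gene was Pnpt1, an RNA-processing enzyme of mitochondria, at -0.25 ± 0.07. With control 1 included, Ifit3b at 6.19 ± 1.02, Ifi44 at 5.54 ± 0.92, Oas1g at 4.41 ± 0.85 and the nucleic acid sensor Zbp1 at 3.94 ± 0.72 had the largest changes. Ifit3b averaged 1.27 normalised reads in wt, so it passed the filter on low counts only through cultured libraries. In JTE against control, 45 were lower and 1 higher, with a median of -1.57, where 26.2% of all genes were lower and 25.9% higher. Zbp1 was at -5.75 ± 0.92, Oas1a at -3.52 ± 0.67, Ifit3b at -3.46 ± 0.74 and the antiviral GTPase Mx1 at -3.46 ± 0.60. Rsad2 (viperin) was at 2.06 in culture and -2.62 with JTE013, both past the test. The gene that was higher in JTE was Ifi27, at 0.39 ± 0.14 (adjusted p = 0.0318). Without control 1, 41 of the 53 were higher in control than in wt (median log2 fold change 1.21), and, counted separately, 40 of the 53 were lower in JTE with a median of -0.97. In those fits 52.1% and 47.3% of all genes passed in either direction.

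Between JTE + CTGF and JTE, 3 of these 53 genes were higher and 1 lower, with a median log2 difference of 0.10, where 30.4% of all genes passed. Ifitm1, a relative of Ifitm3, was higher by 0.70 ± 0.10 (adjusted p = 8e-05), Ifitm2 by 0.15 ± 0.05 (adjusted p = 0.0382) and Tor3a by 1.35 ± 0.25 (adjusted p = 5.65e-04), and Mndal was at -4.33 ± 1.12 (adjusted p = 0.00746). In S1pr2 null against wt, 4 were lower and 1 higher, with a median of -0.32, where 25.8% of all genes passed. Dtx3l, a ubiquitin ligase, Trim25, Isg20, an exonuclease, and Lgals3bp were at -0.78 ± 0.19, -0.32 ± 0.09, -1.06 ± 0.31 and -0.64 ± 0.17, and Xaf1 was at 1.97 ± 0.59 (adjusted p = 0.0196).

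Sensors of foreign nucleic acid moved as well. Of 17 tested, 11 were higher and 2 lower in control than in wt, and 12 were lower in JTE than in control with none higher. In culture Tlr7, a receptor for endosomal RNA, rose by 2.16 ± 0.21, and the cytosolic RNA sensors Dhx58, Ifih1 and Ddx58 by 1.75 ± 0.43, 1.64 ± 0.32 and 1.61 ± 0.18. With JTE013 the same genes were at -2.47 ± 0.22, -1.98 ± 0.45, -1.35 ± 0.32 and -1.24 ± 0.18. The genes that were lower in control than in wt were Samhd1, at -0.48 ± 0.07, and Rnaseh2b, at -0.82 ± 0.11. Of 9 other interferon regulatory factors tested, 8 were higher in culture, among them Irf8 at 1.36 ± 0.15 and Irf1 at 1.29 ± 0.10. In JTE, 4 were lower, Irf8 at -1.47 ± 0.15, Irf1 at -0.84 ± 0.10, Irf5 at -0.78 ± 0.24 and Irf2 at -0.21 ± 0.07, and the corepressor gene Irf2bp2 was higher at 0.62 ± 0.06. Without control 1, 11 sensors were lower in JTE with a median of -0.53, and 3 of the regulatory factors were lower. There 47.3% of all genes passed in either direction. With all libraries, 28.5% of all genes were higher and 29.3% lower in culture, and 25.9% were higher and 26.2% lower in JTE.

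Antigen presentation by MHC class I is another interferon target. All 14 of its genes and those of the immunoproteasome were higher in control than in wt, with a median log2 fold change of 1.62, led by their transcriptional activator Nlrc5 at 3.27 ± 0.63, the proteasome subunit Psmb8 at 2.93 ± 0.39, the peptide transporter Tap2 at 2.76 ± 0.30 and H2-K1 at 2.56 ± 0.23. In JTE, 10 of the 14 were lower and none higher, with a median of -0.69, Nlrc5 at -2.54 ± 0.58 and H2-K1 at -1.23 ± 0.22. With CTGF added, 4 of the 14 were higher than in JTE and none lower: B2m at 0.89 ± 0.17, H2-D1 at 0.63 ± 0.15, H2-T23 at 1.46 ± 0.43 and Psme2 at 0.37 ± 0.11. In S1pr2 null, 4 were lower than in wt and none higher: H2-K1 at -0.80 ± 0.25, H2-D1 at -0.71 ± 0.17, Tapbp at -0.52 ± 0.13 and Erap1 at -0.26 ± 0.09. Without control 1, 12 of the 14 were higher in culture (median 1.26), and in JTE 8 were lower and 1 higher (-0.49). Of all genes, 57.8% passed the test in culture and 52.2% in JTE, and without control 1 52.1% and 47.3%. With CTGF added 30.4% passed (13.6% higher), and in S1pr2 null 25.8% (13.3% lower). Counting both directions, 4 of the 14 was near these last shares.

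The list of interferon-gamma induced GTPases and chemokines also held Cd74, which is neither. Of its 11 genes tested, 10 were higher in control than in wt, where 28.5% of all genes were higher. The chemokine Cxcl10 was at 5.98 ± 0.61, Iigp1 at 4.12 ± 0.59, Gbp3 at 3.44 ± 0.67 and Cd74 at 2.59 ± 0.26. In JTE, 10 of the 11 were lower than in control, where 26.2% of all genes were lower. Cd74 was at -3.55 ± 0.29 and the GTPase Iigp1 at -2.87 ± 0.51. The median of the 11 in JTE was -1.85, and without control 1 it was -1.42, with 10 lower, where 47.3% of all genes passed in either direction. Negative regulators of interferon signalling were called in both directions: of 10, 4 were higher and 2 lower in culture, and 3 were higher and 3 lower in JTE. Of all genes, 57.8% passed in culture and 52.2% in JTE. The phosphatase Ptpn6 was at 0.57 ± 0.08 in culture and -0.70 ± 0.08 with JTE013, and the signalling inhibitor Socs1 at 0.50 ± 0.15 and -0.39 ± 0.15. The inhibitors Pias3 and Pias4 were higher in JTE by 0.31 ± 0.07 and 0.41 ± 0.07.

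**Figure D3:**
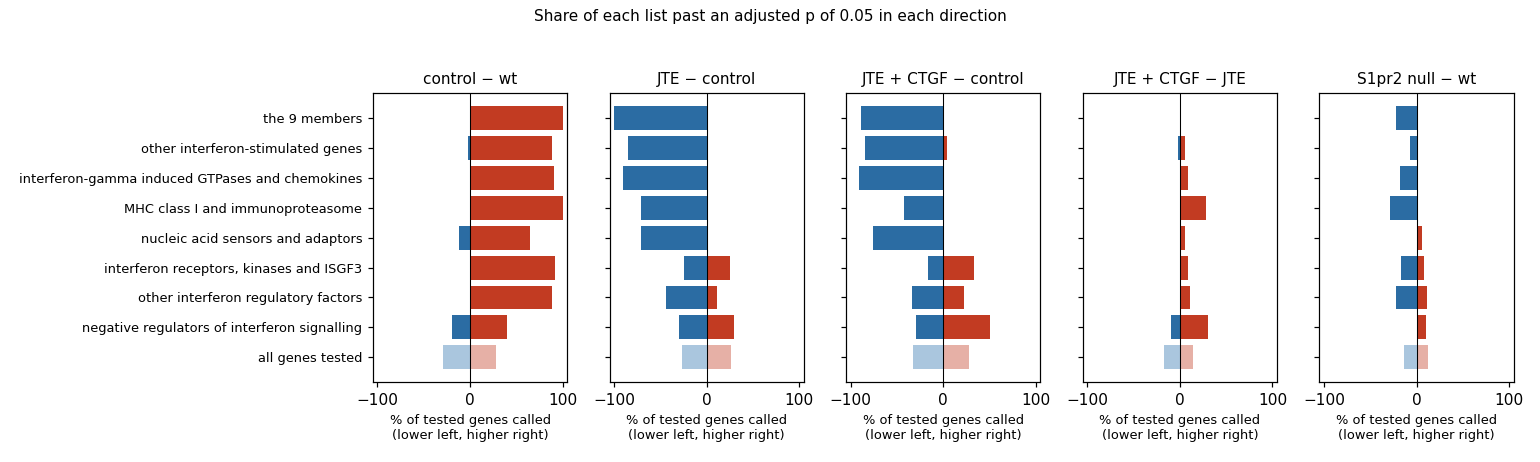
Percent of the tested genes of each list that passed an adjusted p of 0.05, with lower genes to the left of 0 and higher genes to the right, in 5 comparisons. The pale bars at the bottom are all 16245 genes tested. The 9 genes fill the higher side in culture and the lower side in JTE, and receptors and negative regulators split between the sides in JTE, with 3 higher and 3 lower of each.

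Markers of macrophages, which make and answer interferon, moved with the culture and JTE013 comparisons. Of 15 markers tested, 13 were higher and 1 lower in control than in wt, and all 15 were lower in JTE than in control, with medians of 1.20 and -1.68. Cx3cr1 was at -3.76 ± 0.20 and Csf1r, the receptor that macrophages need to survive, at -3.14 ± 0.16 in JTE, and no marker was at 0 in all libraries of a group. Their summed level was 3224 to 3391 normalised reads in wt, 3439 to 3802 in S1pr2 null, 8052 to 8299 in control, 2749 to 3404 in JTE and 2487 to 3489 in JTE + CTGF. The part of these cells in the differences of the 9 genes was not tested. In the control group, control 1 had the lowest macrophage sum, 8052, and the highest sum of the 9 genes, 13860, against 4207 in control 2 and 5084 in control 3. The macrophage sums of these libraries lay close together, and whether the 2 sums vary together within a group was not tested. Among JTE libraries, JTE 3 had the highest of both, 3404 for the markers and 3291 for the 9 genes, against 2749 and 2898, and 1886 and 2000, in JTE 1 and JTE 2. In S1pr2 null, where the 9 genes summed to 1319 to 1417 against 2041 to 2460 in wt, 1 macrophage marker was higher, Mrc1, and 1 lower, C1qa.

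**Figure D4:**
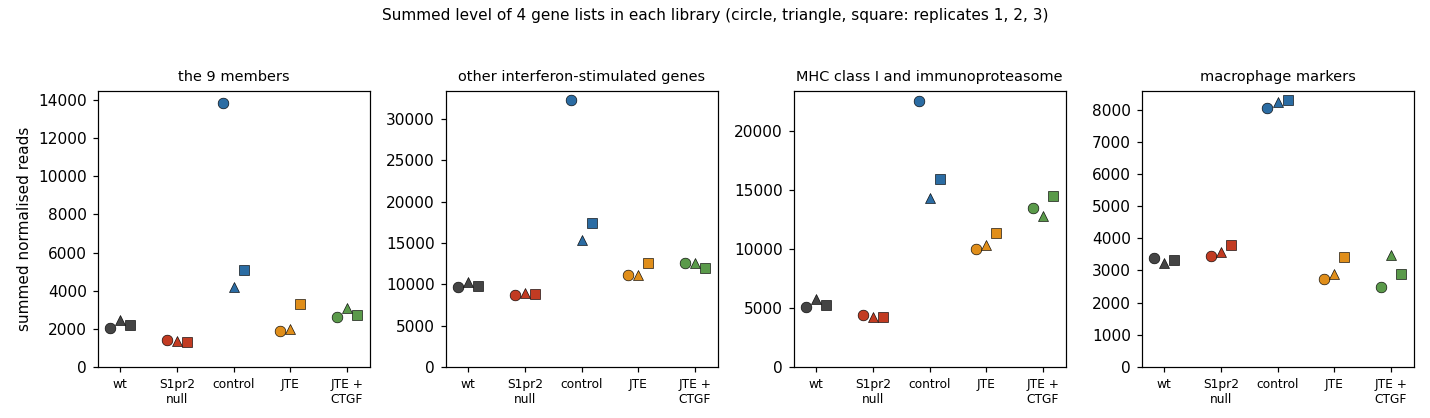
Summed normalised reads of the 9 genes, of the other interferon-stimulated genes, of MHC class I and immunoproteasome genes and of macrophage markers in each library, by group, on linear axes from 0. Control 1 (blue circle) stands above its group in all panels but the last, that of macrophage markers, where the 3 control libraries lie between 8052 and 8299.

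Other cell types were checked in the same way. Of 8 endothelial markers, 6 were lower in JTE than in control and none higher, and all 9 erythroid markers, globins among them, were lower in control than in wt. Of 8 epithelial markers, 6 were higher in culture, 5 were lower in JTE and all 8 were lower in S1pr2 null, and of 9 mesenchyme markers, 6 were higher and 2 lower in culture. In S1pr2 null, 5 of the 9 mesenchyme markers were lower and 2 higher, and 4 of 7 pancreas markers were lower with a median log2 fold change of -0.80. With CTGF added to JTE013, 5 of the 9 erythroid markers were higher, with a median of 1.83. These counts and those of the macrophage markers stand beside the shares of all genes. In culture 28.5% of all genes were higher and 29.3% lower, and in JTE 25.9% were higher and 26.2% lower. In S1pr2 null 12.6% were higher and 13.3% lower, and with CTGF added 13.6% were higher and 16.8% lower. The part of these other cell types in the differences of the 9 genes was not tested.

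Across the 15 libraries the 9 genes varied together, as a description over libraries that share groups. Pearson's r between pairs of them, on log2 CPM, ran from 0.386 for Ifit2 with Bst2 to 0.985 for Ifit3 with Irf7, and Irf7 with Oasl2 stood at 0.984. The genes outside the 9 whose pattern was most like their mean, by the same measure, were Ifih1 (r = 0.984), Lgals9 (0.98), Ddx58 (0.978), Ifi44 (0.974), Gbp4 (0.974), Parp12 (0.971), Oasl1 (0.971), Psmb8 (0.969), Parp9 (0.968) and Igtp (0.967). Ifi44, for example, averaged 7.48 normalised reads in wt, 5.83 in S1pr2 null, 355 in control, 44 in JTE and 32.6 in JTE + CTGF, and Lgals9 267, 194, 1180, 293 and 405.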

How the data were processed

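RNA was sequenced from 15 libraries of pooled pancreata or explants. Per the labels and the study's methods, the authors prepared poly(A) strand-specific libraries, sequenced single reads, aligned them to mm10 with GSNAP and counted uniquely aligned reads per Ensembl 69 gene with featureCounts 1.4.6; the strand setting of the counting is not given in the sources used here. The deposited values are raw counts per gene, mapped to symbols through GENCODE M21. Irf7 overlaps Phrf1 on the opposite strand by 45 exonic bases.

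From these counts, genes passing filterByExpr (16245) were fitted with edgeR 4.0.16 (R 4.3.3; TMM scaling, quasi-likelihood F-test, 1 coefficient per group, all 15 libraries), with Benjamini-Hochberg adjustment over all tested genes and a threshold of 0.05. Standard errors and 95% intervals of log2 fold changes were derived from the F statistic. The procedure was tested on simulated data. The alternatives were RLE factors, total counts, DESeq2 1.42.0, no filter, a fit of only the libraries compared, a replicate block, and each library left out in turn. A further alternative, without both control 1 and JTE 3, was chosen after seeing the data, for their high levels of these genes. Motifs were searched in RefSeq promoter windows. The members and the gene lists were chosen with earlier results of these data known. Named genes were the 9 members, those of each other list past the test (all if 5 or fewer, otherwise taken from the 4 of largest change per comparison), some textbook genes of the pathway, and the 10 most alike. Genes outside that rule (Ifi27, Pnpt1, Samhd1, Rnaseh2b and other exceptions to a list's direction, and the members given in a second comparison to set values side by side) were chosen after their values were seen. Intervals cover the spread between pools only, and no batch or date is labelled. The values of 1 listed gene are not reported here.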

Additional observations from a re-analysis of the deposited data

Results flagged for a closer look

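For 2 of the 9 genes the response to JTE013 in culture differed from the difference between the genotypes in uncultured tissue, by edgeR's interaction term. Of all genes tested, 42.9% passed that term, so the count does not set the 9 genes apart. For Ifit2 the difference of the responses was -1.489 on the log2 scale (adjusted p = 0.00211): all 3 S1pr2 null libraries lay above the 3 of wt, and all 3 JTE libraries lay below the 3 of control. For Ifitm3 it was -0.976 (adjusted p = 0.00623), both differences being in the lower direction.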

How the results depend on the processing

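Scaling by RLE factors or total counts, or testing by DESeq2, changed no count of the 9 genes past the test by over 1.5 times. Fitting only the libraries compared gave 5 genes past the test in place of 2 for S1pr2 null against wt (34.7% of all genes), and 1 in place of 0 for JTE + CTGF against JTE (24%). Without the filter on low counts that comparison gave 1 (19.8% of all genes) and the interaction 4 (27.2%). Leaving out each library in turn gave 0 to 3 genes for S1pr2 null against wt (median log2 fold change -0.896 to -0.639), 8 to 9 for JTE against control (-3.12 to -1.17), 0 to 1 for JTE + CTGF against JTE (-0.164 to 0.59), 7 to 9 for JTE + CTGF against control (-3.04 to -1.08), 8 to 9 for control against wt (2.50 to 4.36) and 2 to 3 for the interaction. In those fits 17.1% to 28.7% of all genes passed for S1pr2 null against wt. The shares were 47.3% to 52.4% for JTE against control and 20.4% to 30.3% for JTE + CTGF against JTE. They were 54.9% to 63% for JTE + CTGF against control, 51.5% to 58.9% for control against wt and 38.1% to 43.5% for the interaction. Control 1 was the library behind the smallest medians in the comparisons with control.

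Without control 1 and JTE 3 together, 4 genes passed for S1pr2 null against wt, 5 for JTE + CTGF against JTE and 6 for the interaction, where 29.7%, 30.4% and 42.6% of all genes passed, and the medians were -1.04 for JTE + CTGF against control and 2.52 for control against wt. In that fit the 5 genes past the test between JTE + CTGF and JTE were all higher with CTGF. They were Ifit3 (1.38), Irf7 (1.18), Oasl2 (0.82), Ifitm3 (0.62) and Bst2 (0.54). The sign of that difference reversed for Isg15 (0.40) and Usp18 (0.22), which did not pass, and Bst2 reversed against control (0.13). Control 1 and JTE 3 were left out for their levels of the genes themselves.

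Single genes changed sign between JTE + CTGF and JTE when 1 library was left out: Ifit1 ranged from -0.16 to 0.59, Ifit3 from -0.10 to 1.38, Isg15 from -0.53 to 0.40, Irf7 from -0.18 to 1.18, Oasl2 from -0.26 to 0.82, Usp18 from -0.45 to 0.22 and Bst2 from -0.041 to 0.54. Bst2 for JTE + CTGF against control ranged from -1.23 to 0.10 and the interaction of Ifit1 from -2.0 to 0.45, the upper limits of both without control 1. Bst2 in JTE against control further missed the threshold by DESeq2 (adjusted p = 0.0731), with the comparison's own libraries (0.146) and with the replicate block (0.0668). The causes were not tested.

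Whether replicate numbers pair the libraries was not settled. Over 30 same-numbered pairs the correlation of deviations from group means ran from -0.108 to 0.248, with 2 above 0.1. Both were of control with JTE, replicate 2 at 0.148 and replicate 3 at 0.248. Libraries of different number were not compared, so the check cannot exclude a pairing. The fit with replicate number as a block gave 8 genes for JTE against control (median -2.37), where 51.3% of all genes passed, and changed no other count of the 9 genes.

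Depth limited Ifit1 and Ifit3 in uncultured tissue, where no library had more than 9 reads of either.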
